A study of Mus musculus with 8 samples.

Results

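Intermediate filament genes were examined in total RNA from mouse embryonic stem cells (mES cells) whose METTL3, the enzyme that writes N6-methyladenosine on RNA, carries a degron tag and is destroyed when dTAG-13 is added. The 8 members were Vim, Nes, Krt8, Krt18, Krt19, Lmna, Lmnb1 and Lmnb2, out of 17597 genes and 18694 features in the deposited table. The members were chosen by gene name, as genes of this family, with earlier results of these data known, and no measured value was used as a threshold. The 8 libraries formed a group of 4 left without dTAG-13 and a group of 4 given dTAG-13 for 26 hours, drawn in both cases from 2 clones, C3 and H5, each sampled in 2 replicates. All libraries shared the METTL3_FKBP12F36V tag, a Cast x 129S background and a TetOn promoter in place of the endogenous Xist promoter, which the labels place on the 129S allele and the study's text, for this line, on the Cast allele. None received doxycycline, so Xist was not induced, and the group without dTAG-13 carried the same tag. The cells were grown on mitomycin-treated fibroblast feeders, so feeder RNA can be present in every library.

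The table gives a single level for each gene, the authors' mean normalized count over all libraries, and no value for a named library. The contrast between groups is present only as columns of the authors' own comparison, which were not used here. Every level below therefore pools treated and untreated cells, has no replicate error, and says nothing about a response to dTAG-13. Levels were compared by their ratios only, and no test was possible.

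Intermediate filaments are rope-like polymers of coiled-coil proteins. Vimentin (Vim) forms the filaments of fibroblasts and other mesenchymal cells, nestin (Nes) joins vimentin filaments in neural progenitors, and keratins form epithelial filaments that always pair a type I with a type II protein. Lamins build the mesh under the inner nuclear membrane. Lmnb1 and Lmnb2 encode B-type lamins, which nearly all cells make, while Lmna encodes lamins A and C by alternative splicing and is known to be low in pluripotent cells and higher in differentiated ones.

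All 8 members were detected, with mean counts from 245 (Krt19) to 3375 (Lmnb1). All 8 exceeded a mean count of 100, a level that 56.3% of the genes in the table reached, and all 8 lay above the median of all genes, both by mean count (median 170) and per kb of exon (median 39.9). Among genes that reached a mean count of 10, 2 members lay under the median, Nes per kb (percentile 46.4) and Krt19 by mean count (percentile 41.2). Together they held 9611 of 14573411 summed mean counts of genes, or 0.0660%. Lamins took 57.8% of the members' summed mean counts and keratins 16.0%.

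Because a longer gene collects more reads at the same number of RNA molecules, levels were compared as the mean count per kb of the union of a gene's annotated exons. Lmnb1 stood first at 1139 counts per kb, above 96.1% of 17374 genes with a length. Vim (437) and Krt8 (435) followed and differed by 0.417%. Lmnb2 had 383 counts per kb, Krt18 had 305, Krt19 had 132, Lmna had 93.0 and Nes had 69.2. Lmnb1 exceeded Nes 16.5-fold per kb and Vim 2.61-fold. With no spread for any of these levels, the order of neighbors such as Vim, Krt8 and Lmnb2 was not resolved.

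**Figure D1:**
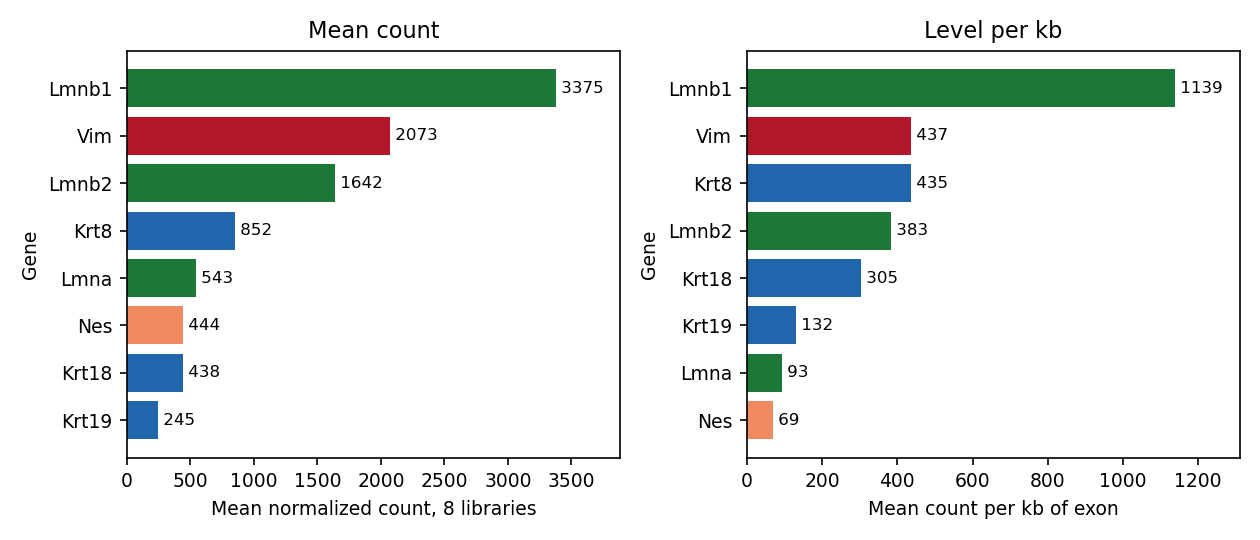
Bars give the authors' mean normalized count over 8 libraries (left, counts) and the same value per kb of exon union (right, counts per kb), with 1 bar for each gene and no error bars because no value per library was used. Lmnb1 leads on both scales, at 3375 counts and 1139 counts per kb, while Nes moves from the sixth place by counts to the last per kb.

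**Figure D2:**
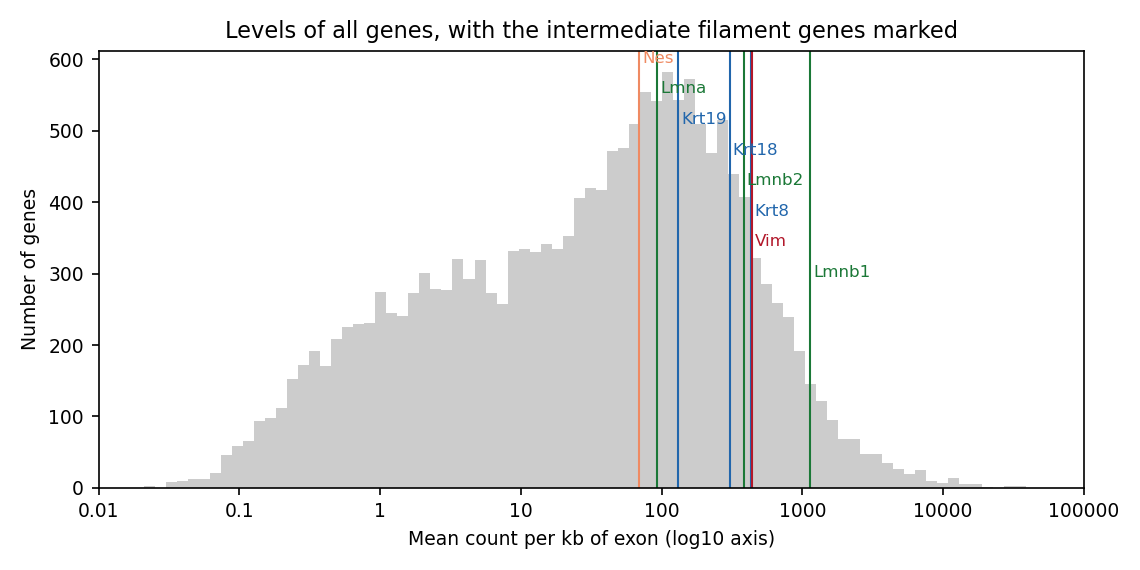
The histogram shows the mean count per kb of exon for 17374 genes on a log10 axis, and the y axis counts genes. Vertical lines mark the 8 members, which run from the 58.5th percentile (Nes, 69.2 counts per kb) to the 96.1st percentile (Lmnb1, 1139 counts per kb).

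B-type lamins exceeded A-type lamin RNA. Lmnb1 had a mean count of 3375 and Lmnb2 of 1642, against 543 for Lmna. Per kb, Lmnb1 was 12.3 times Lmna, and Lmnb1 with Lmnb2 together were 16.4 times Lmna. Lmnb1 was 2.97 times Lmnb2 per kb. The exon union of Lmna (5838 bases, 7 transcripts) was 1.85 times its longest-coding transcript, and with that transcript as the length the ratio of both B-type lamins to Lmna was 9.60. Without any length it was 9.24, so the B-type lamins were ahead on each scale tried. Reads of lamin A and lamin C were counted together, so the proportion of each was not measured.

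Of 14 genes fixed as partners of the lamina, all were in the table and 13 had a mean count of at least 100, against 56.3% of all genes. Banf1, which links chromatin to lamin-binding proteins, had 1494 counts per kb, Lbr, the lamin B receptor, had 958 and Nup153, a nuclear pore protein that binds lamins, had 897. The lowest per kb was Syne1, a giant outer nuclear membrane protein that ties the nucleus to the cytoskeleton, at 5.32 counts per kb. Its mean count was 215. Syne3, named after its value was seen, had the lowest mean count of these partners, 54.4. Of the 5 enzymes that process lamin tails, all exceeded a mean count of 100, led by the farnesyltransferase subunits Fnta (668 counts per kb) and Fntb (254), followed by the protease Rce1 (239). Zmpste24, the protease that matures prelamin A, was lowest at 107 counts per kb.

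Among keratins, Krt8 stood almost alone on the type II side. Krt8 had a mean count of 852, and the next of 13 type II keratins in the table, Krt7, had 48.0. Krt8 held 96.5% of the summed type II level per kb of exon union. On that scale it was 63.9 times the next gene, Krt7 (6.81 counts per kb), a wider gap than by mean count. Other lengths were not tried for this share or this ratio. Krt8 and Krt18, the first keratin pair of the embryo and of simple epithelia, had a ratio of 1.43 per kb, with Krt18 at a mean count of 438. Krt19, a type I keratin that also pairs with Krt8, had a mean count of 245 and 0.433 times the level of Krt18 per kb.

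The type I side was spread over more genes. Of 17 type I keratins, 4 had a mean count of at least 100, against 56.3% of all genes: Krt42 (715), Krt17 (459), Krt18 (438) and Krt19 (245). Per kb, Krt42 held 34.2% of the summed type I level, Krt18 25.7%, Krt17 24.97% and Krt19 11.1%. The summed type I level was 2.63 times the summed type II level per kb, and 2.11 times by mean count. The next type I genes were Krt10 (20.2) and Krt14 (13.1), keratins of stratified epithelia. Of 30 keratin genes, 12 reached a mean count of 10 and 18 were under it, while 13590 of all 17597 genes reached it. Krt17, Krt42 and Krt14 belong to a cluster of closely related type I genes, and Krt8 and Krt18 have processed copies in mammalian genomes, so their counts are uncertain to the extent that only uniquely placed reads were kept.

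**Figure D3:**
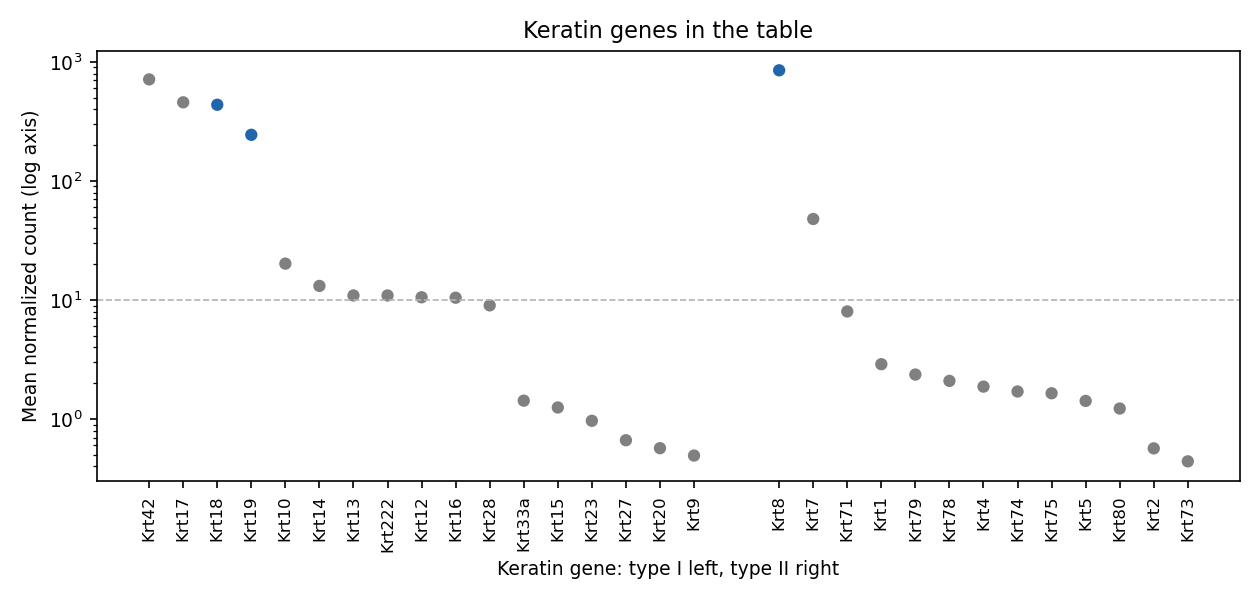
Points give the mean normalized count on a log axis of 17 type I keratins (left) and 13 type II keratins (right), with Krt8, Krt18 and Krt19 in blue, and the dashed line marks a mean count of 10. Krt8 (852) stands far above the next type II gene, Krt7 (48.0), whereas 4 type I genes lie between 245 and 715.

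Linkers that anchor keratin and vimentin filaments to junctions and to other filaments were also present. Of 13, all were in the table and 11 had a mean count of at least 100, against 56.3% of all genes. The highest levels per kb were those of Pkp4 (385), a plakophilin relative of cell junctions, Macf1 (301) and Dst (181), which are giant linkers between actin, microtubules and filaments. Pkp1, a desmosomal plakophilin of stratified epithelium, had a mean count of 1.89, or 0.377 counts per kb.

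Vim, with a mean count of 2073, was the highest of the cytoplasmic members by count. Its per kb value depended on the length used. Its exon union (4743 bases) covers 6 annotated transcripts, of which 3 are of the retained-intron type, is 2218 bases without those 3, and is 2.16 times its longest-coding transcript (2193 bases), so Vim went from 437 to 945 counts per kb when that transcript was the length, and to 1483 with the coding sequence alone. The ratio of Vim to Krt8 was 1.00 with the exon union and 2.17 with the longest-coding transcript. Lmnb1 was first and Vim second under each of the 4 lengths.

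**Figure D4:**
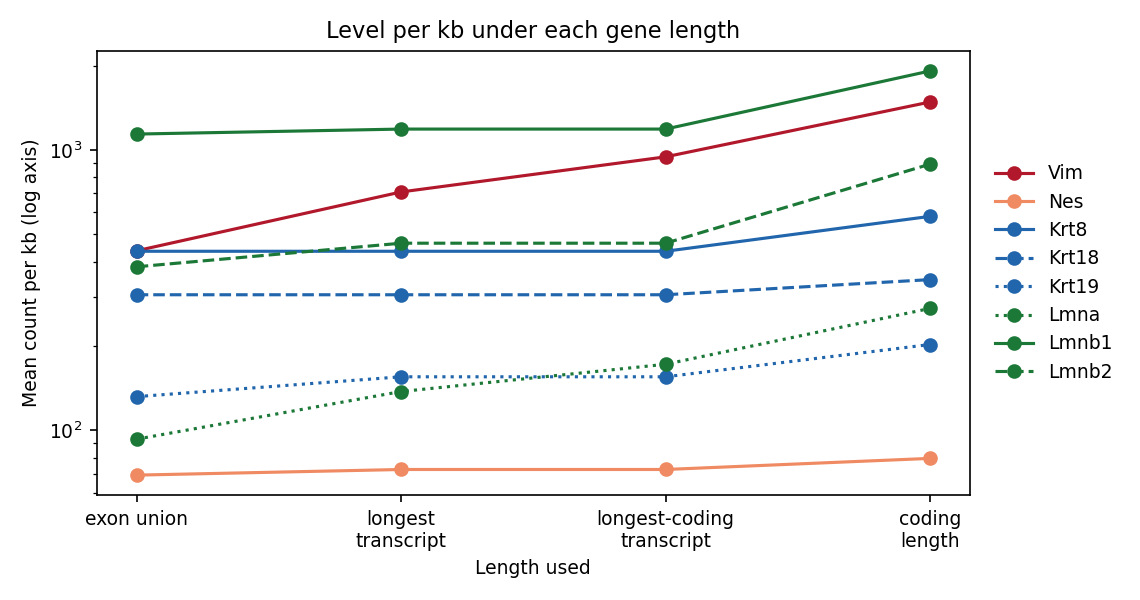
Each line follows a gene across 4 definitions of its length on the x axis, and the y axis is the mean count per kb on a log axis. Vim and Krt8 lie together with the exon union (437 and 435 counts per kb) and apart with the longest-coding transcript (945 and 435), while Lmnb1 stays first and Nes last.

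Nes had a mean count of 444 and the lowest level per kb, 69.2. Its exon union was 6416 bases, the longest of the members, and its level per kb was 72.5 with the longest-coding transcript. Of 11 other intermediate filament genes outside the keratins, 9 had a mean count of at least 10 and 5 of at least 100. Of all 17597 genes, 13590 reached 10 and 56.3% reached 100. The neurofilament light gene Nefl led at 214 counts per kb, 3.10 times Nes, followed by Ina, which encodes internexin (120), and the neurofilament heavy gene Nefh (111). Bfsp2, a filament gene of the eye lens, was lowest at 1.53 counts per kb.

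The labeled cell type was checked against its markers. All 13 pluripotency markers had a mean count of at least 967 and exceeded Vim per kb, led by Dppa5a (16142 counts per kb), Pou5f1 (5309) and Zfp42 (4840), with Klf4 lowest at 464. Pou5f1, the gene of the core factor Oct4, was 12.1 times Vim per kb. With the longest-coding transcript as the length of every gene, 8 of the 13 exceeded Vim and Pou5f1 was 9.27 times Vim. Fibroblast feeder markers were uneven. Of 20, 15 had a mean count of at least 10 and 10 of at least 100. Of all 17597 genes, 13590 reached 10 and 56.3% reached 100, so these counts do not set the list apart. Per kb, 3 exceeded Vim, also with the longest-coding transcript as the length: Lgals1 (1077), S100a6 (922) and Sparc (806). The lowest, Postn, an extracellular matrix gene, had a mean count of 0.768. Of genes named after their values were seen, Fn1, the fibronectin gene, had the highest mean count of the list, 4941 against 2073 for Vim. Per kb of exon union, Fn1 had 423 against 437 for Vim. The 5 fibrillar collagen genes, also named after their values were seen, had mean counts from 8.38 (Col3a1), 13.8 (Col1a2) and 19.8 (Col1a1) to 90.5 (Col5a2) and 226 (Col5a1). Beside Vim, the summed mean count of the feeder list was 11744 and that of the pluripotency list 78046. In these bulk libraries a few cells with much Vim RNA and many cells with little cannot be told apart, and the part of feeder RNA in the level of Vim was not tested.

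The same holds for Nes and the keratins. Of 7 neural markers, 5 had a mean count of at least 10, near the share of all genes (13590 of 17597). Tubb3, a neuronal tubulin, had 1340 counts per kb, while Map2 (22.1) and Neurod1 (19.6) came next and Olig2 was at 0.224. Of 10 trophectoderm and endoderm markers, 7 had a mean count of at least 10, also near that share. The highest per kb were Tfap2c (250 counts per kb), Eomes (74.0) and Dab2 (22.1), with Elf5, a trophoblast factor, lowest at 0.352. Over genes that reached a mean count of 10, the median level per kb was 344 for the 8 members, 1622 for pluripotency markers, 38.7 for feeder markers, 19.6 for neural markers and 10.2 for trophectoderm and endoderm markers, against 81.2 for all such genes. The medians of the remaining lists on that scale were 24.96 for the other intermediate filament genes, 181 for lamina partners, 239 for the lamin enzymes, 106 for linkers and 6.81 for the other keratins.

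**Figure D5:**
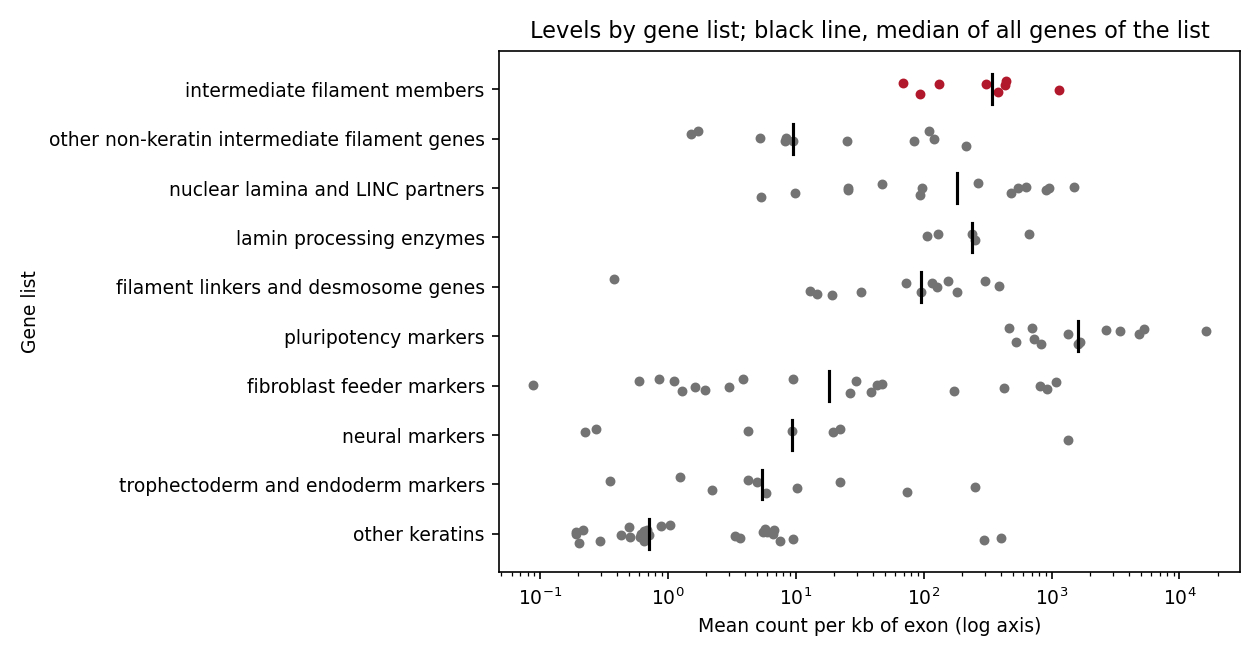
Points are genes, placed by mean count per kb of exon on a log axis, in rows by gene list, and the black line is the median of all genes of the list without a minimum count. The median of the 8 members (red) was 344 counts per kb, against 1622 for pluripotency markers, 239 for the lamin enzymes and 18.03 for feeder markers. Genes of these lists overlap: Lmnb1 (1139) lies above the pluripotency marker Klf4 (464), and the feeder marker Lgals1 (1077) above Vim (437).

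In GRCm38, the genes lie on 6 chromosomes. Krt8 (chromosome 15, 101996698 to 102004482, minus strand) and Krt18 (chromosome 15, 102028180 to 102032027, plus strand) are divergent neighbors 23.7 kb apart with no annotated gene between them, and Krt18 is the type I keratin that lies among the type II genes. Krt19 (chromosome 11, 100140810 to 100148665) is 114 kb from Krt42 and 108 kb from Krt17, and Krt17 and Krt42 are separated by 1.85 kb. Nes (chromosome 3, 87971078 to 87980451) and Lmna (chromosome 3, 88480147 to 88509956) are 500 kb apart with 21 protein-coding genes between them. Vim lies on chromosome 2 (13573927 to 13582826), Lmnb2 on chromosome 10 (80901203 to 80918245) and Lmnb1 on chromosome 18 (56707813 to 56753424). Exons of Krt8 overlap 101 bases of a lincRNA, Gm36026, on the opposite strand, which was not analysed here, and whether the authors' counting used strand is uncertain.

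METTL3 methylates adenosines within a short consensus that often reads GGAC, and methylation gathers in long exons. The members' longest-coding transcripts were searched for GGAC on the RNA strand. Krt18 had 11 matches, 7.65 per kb, above 94.4% of 13462 genes that reached a mean count of 10, and Krt8 had 13 (6.64 per kb). Nes had 37 matches in 6126 bases (6.04 per kb), Lmnb2 had 23 (6.51 per kb), Krt19 had 10 (6.35 per kb), Lmna had 18 (5.70 per kb) and Vim had 10 (4.56 per kb). Lmnb1 had 9 (3.17 per kb) and was the only member under the median gene (4.22 per kb). A match is not a methylated site, and methylation was not measured in these libraries.

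The same transcripts were GC-rich. All 8 members exceeded the median GC content of genes (50.6%), from 53.3% in Lmnb1 to 59.3% in Lmna. Exon numbers ran from 4 in Nes to 12 in Lmna and Lmnb2, against a median of 9. The longest internal exon, which leaves out the first and last exons, ran from 125 bases in Nes to 274 bases in Lmnb2. The median was 218 bases over 12302 genes that have one. With 4 exons in 6126 bases, most of the Nes transcript lies in its first and last exons. The lengths of first and last exons were not compared between genes.

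Promoters are shown for 4 members of the vimentin, keratin and lamin classes: Vim, the pair Krt8 and Krt18, and Lmnb2. Each sequence is the 250 bases before the RefSeq start (GRCm38.p6), read 5′ to 3′ on the gene's strand. Capitals mark matches, on either strand, to the GC box GGGCGG, the TATA element TATAAA, the box named CCAAT or the AP-1 element TGACTCA. The intervals are chr2:13574061-13574310 (plus) for Vim, chr15:102004343-102004592 (minus) for Krt8, chr15:102027966-102028215 (plus) for Krt18 and chr10:80918246-80918495 (minus) for the first of 2 Lmnb2 starts. RefSeq starts can differ from the GENCODE gene ends given above. The Vim window lies wholly inside the GENCODE span of its gene, and the Krt8 and Krt18 windows lie partly inside theirs.
Vim: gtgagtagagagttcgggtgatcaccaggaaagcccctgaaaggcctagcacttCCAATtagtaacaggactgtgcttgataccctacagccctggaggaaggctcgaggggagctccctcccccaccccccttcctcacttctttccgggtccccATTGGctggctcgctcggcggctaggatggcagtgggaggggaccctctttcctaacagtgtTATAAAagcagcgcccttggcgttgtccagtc
Krt8: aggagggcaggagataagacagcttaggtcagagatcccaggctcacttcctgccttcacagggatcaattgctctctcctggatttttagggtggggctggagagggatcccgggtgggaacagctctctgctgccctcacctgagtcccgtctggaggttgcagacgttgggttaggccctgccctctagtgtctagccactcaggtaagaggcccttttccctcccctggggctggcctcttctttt
Krt18: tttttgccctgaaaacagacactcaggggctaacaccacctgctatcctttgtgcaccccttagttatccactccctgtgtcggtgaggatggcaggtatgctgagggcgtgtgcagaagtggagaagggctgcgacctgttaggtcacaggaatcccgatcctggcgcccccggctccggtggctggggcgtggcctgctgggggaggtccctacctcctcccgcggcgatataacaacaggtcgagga
Lmnb2: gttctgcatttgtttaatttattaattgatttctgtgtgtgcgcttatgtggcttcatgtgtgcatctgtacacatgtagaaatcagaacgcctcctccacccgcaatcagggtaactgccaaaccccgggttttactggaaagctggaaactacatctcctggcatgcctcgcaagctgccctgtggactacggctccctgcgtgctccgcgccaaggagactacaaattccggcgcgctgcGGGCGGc

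The 4 windows differed in these letters. Vim had a TATA match that begins 32 bases before the start, and CCAAT matches that begin 196 and 94 bases before it. Over 32851 windows of the same length in RefSeq genes, 12.4% held TATAAA and 33.8% held CCAAT. Lmnb2 had a GC box match 7 bases before the start, a motif in 32.7% of windows, and neither Krt8 nor Krt18 had a match to any of the motifs, AP-1 (4.46% of windows) included. The Krt8 window held 3 CpG dinucleotides and that of Krt18 held 12, against a median of 6, although both were GC-rich (58.0% and 60.4%). Vim had 8 CpG dinucleotides and Lmnb2 had 14. These are counts of letters in a window and say nothing of which factors bind. Of the other members, Nes had 2 GC box matches and the first of 2 RefSeq Lmna starts had 1. That Lmna window (chromosome 3, 88503353 to 88503602, minus strand) lies inside the GENCODE span of the gene, which ends at 88509956. A promoter sequence was available for 6 members, and Krt19 and Lmnb1 were not among them, so their promoters were not examined.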

How the data were processed

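Total RNA of 8 libraries was sequenced as paired ends. Per the study's methods, the authors removed ribosomal reads, aligned the rest with STAR to mm10 with strain variants masked, kept unique alignments, removed duplicates with Picard and counted genes and transposable elements with TEtranscripts. The labels' extraction text describes chromatin RNA, while the molecule label and the methods describe total RNA. The deposited signal column is the authors' mean of size-factor scaled counts over all libraries, without length correction. The other 5 deposited columns hold the authors' own comparison (fold change, its standard error, a statistic and p-values) and were not used. Depth per library is unknown, so no interval or test was given.

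Symbols were matched to GENCODE vM21 (GRCm38): 16660 directly, 714 through an older symbol, 33 ambiguous and 190 unmatched. Levels per kb divide by the union of annotated exons. Exon number, GC and GGAC come from the transcript with the longest coding sequence, and type II keratins are those on chromosome 15 other than Krt18. The length and percentile steps were tested on simulated data. Members and gene lists were chosen with earlier results of these data known. Named genes are all members, the 3 highest and the lowest per kb of each fixed list, and the 5 other keratins with the highest mean count, and genes outside this rule are said to be so where named. Python 3.11.15 and pandas 2.3.3 were used. Alternatives were other lengths, minimum counts and totals.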

Additional observations from a re-analysis of the deposited data

How the results depend on the processing

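No paired analysis was possible because the table gives no value per library, so no replicate could be left out either. With no replicate error, a value was taken as moved when it changed by more than 1.5-fold. Of the levels per kb, Vim moved with the longest annotated transcript (708), the longest-coding transcript (945) and the coding length (1483). Lmna moved with the longest-coding transcript (172) and the coding length (272). Krt19 (202), Lmnb1 (1913) and Lmnb2 (890) moved with the coding length, and Nes, Krt8 and Krt18 did not move. The ratio of Lmnb1 to Lmna moved to 7.03 with coding length, 6.90 with the longest-coding transcript and 6.22 without length, and that of both B-type lamins to Lmna to 10.3, 9.60 and 9.24. The ratio of Vim to Krt8 moved to 1.63 with the longest transcript, 2.56 with coding length, 2.17 with the longest-coding transcript and 2.43 without length. No ratio crossed 1 under these settings. The ratio of Vim to Krt8 was 1.00 with the exon union only, and Vim was ahead under every other setting. With no spread for these levels, the order of that pair with the exon union was not resolved. Without a minimum count, list medians per kb moved to 9.54 for other intermediate filament genes, 18.03 for feeder markers, 9.39 for neural markers, 5.42 for trophectoderm and endoderm markers and 0.708 for other keratins. Among genes that reached a mean count of 10, Nes lay under the median per kb (percentile 46.4, against 58.5 among all genes), and the other 7 members stayed above it. Shares that include transposable elements did not move. The longest-coding transcript was chosen as a length after the data were seen, and the coding length was taken from the annotation. The pooled level limits all of these values, since a difference between groups, clones or libraries cannot be seen in it.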
